A study of Mus musculus with 4 samples.

Results

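Gene expression in wild-type alveolar type II epithelial cells (AEC2) was compared between lungs taken 4 days after bleomycin and untreated lungs. The comparison used 2 of the 4 arrays of the study, 1 array for each condition, and every difference below is the day 4 signal minus the untreated signal. No selection of genes entered the comparison: probe sets with 1 gene symbol were averaged per gene, and all genes so measured were compared. The untreated group was AEC2 from wild-type mice, the treated group was AEC2 from wild-type mice 4 days after bleomycin, and the remaining arrays held the same conditions in TLR4-/- mice, written Tlr4-/- here. All cells were obtained by flow sorting, and each array received RNA from cells of 4 to 5 lungs that were pooled, so the spread between animals was averaged within a pool and could not be measured. Total RNA was isolated with Trizol, amplified with the Ovation Pico WT Amp V2 kit, labelled with the Encore Biotin Module and hybridised to an Affymetrix array. The strain, age and sex of the mice, the dose and route of bleomycin, the sorting gate and the Tlr4 allele are not given in the sources used here. With 1 array in each group there was no test and no p-value: a gene is called higher or lower when its log2 signal differed by at least 1, that is by 2-fold.

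AEC2 are cuboidal cells of the lung alveolus that make and recycle surfactant, and they act as progenitors that divide and give rise to the flat type I cells (AEC1) of the gas exchange surface. Bleomycin is a glycopeptide drug that breaks DNA, injures the alveolar epithelium and is widely used in mice to model lung injury followed by fibrosis. DNA breaks stabilise the transcription factor p53, which induces genes for cell cycle arrest, repair and apoptosis, while injured epithelium passes through transitional states marked by keratins and stress genes before it reaches the AEC1 state.

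The sorted cells carried the markers of their label. All 21 AEC2 markers on the array exceeded the brightness floor on average, a log2 signal of 7.05 chosen so that as many genes lie above as below it. The surfactant protein gene Sftpc was at 14.03 untreated and 14.06 at day 4, and Sftpb was at 13.96 on both arrays. Markers of other lung cells were also present on both arrays, among them the airway club cell gene Scgb1a1 at 13.93 and 13.73 and the AEC1 gene Ager at 12.82 and 12.95. The pools differed in their Y-linked signal: Eif2s3y was at 6.82 untreated and 8.85 at day 4, while Xist, expressed from the inactive X chromosome of females, was at 11.41 and 10.79. The Tlr4-/- pools differed the same way, with Eif2s3y at 6.86 and 8.87 and Xist at 11.30 and 10.04, so the sex make-up of the pools and the treatment cannot be told apart in either genotype. Control transcripts of the hybridisation mix (18 probe sets) had a median difference of -0.35, with a range of -0.42 to -0.06, whereas the median over all genes was 0.00. Their difference shrank with brightness: the median was -0.40 for bioB (10.96 untreated), -0.37 for bioC (12.12), -0.19 for bioD (13.33) and -0.07 for cre (14.37). Centring on those controls with a single shift puts the median gene at 0.36. That shift is close to the bioB and bioC differences and larger than those of bioD and cre. Which scale is right was not tested. All values below are relative to the arrays' own scale unless that second scale, the control scale, is named.

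Of 18194 genes, 332 were at least 2-fold higher at day 4, which is 1.82% of the genes, and 81 were at least 2-fold lower, which is 0.445%. Most genes differed little: the middle 50% of differences lay between -0.16 and 0.19 and the central 90% between -0.46 and 0.64. A difference of at least 4-fold was reached by 36 genes upward and 4 downward, and one of at least 8-fold by 4 genes, Ifi27l2a, Orm1, Timp1 and Phlda3, all higher at day 4. The mean over the 4 arrays was above the brightness floor for 232 of 332 higher and 28 of 81 lower genes. There they made up 2.55% and 0.308% of 9097 genes. That mean takes in the day 4 arrays, which lifts genes higher at day 4 and pulls down lower ones. Part of this contrast is thus built in. Each of the 79 genes past 2-fold with several probe sets above the floor had all of these pointing the same way, against 2729 of 4766 such genes in all. A mean past 2-fold itself favours probe sets of the same sign, so this contrast does not measure how well they agree. The probe sets of Lman2l, for example, pointed the same way at -3.40 and -0.03. As a yardstick for single arrays, the day 4 arrays of the genotypes differed by 2-fold at 18 genes (0.0989%) upward and 9 (0.0495%) downward in Tlr4-/- relative to wild type, and the untreated arrays at 133 (0.731%) and 84 (0.462%). The untreated arrays thus stood further apart than the day 4 arrays.

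**Figure D1:**
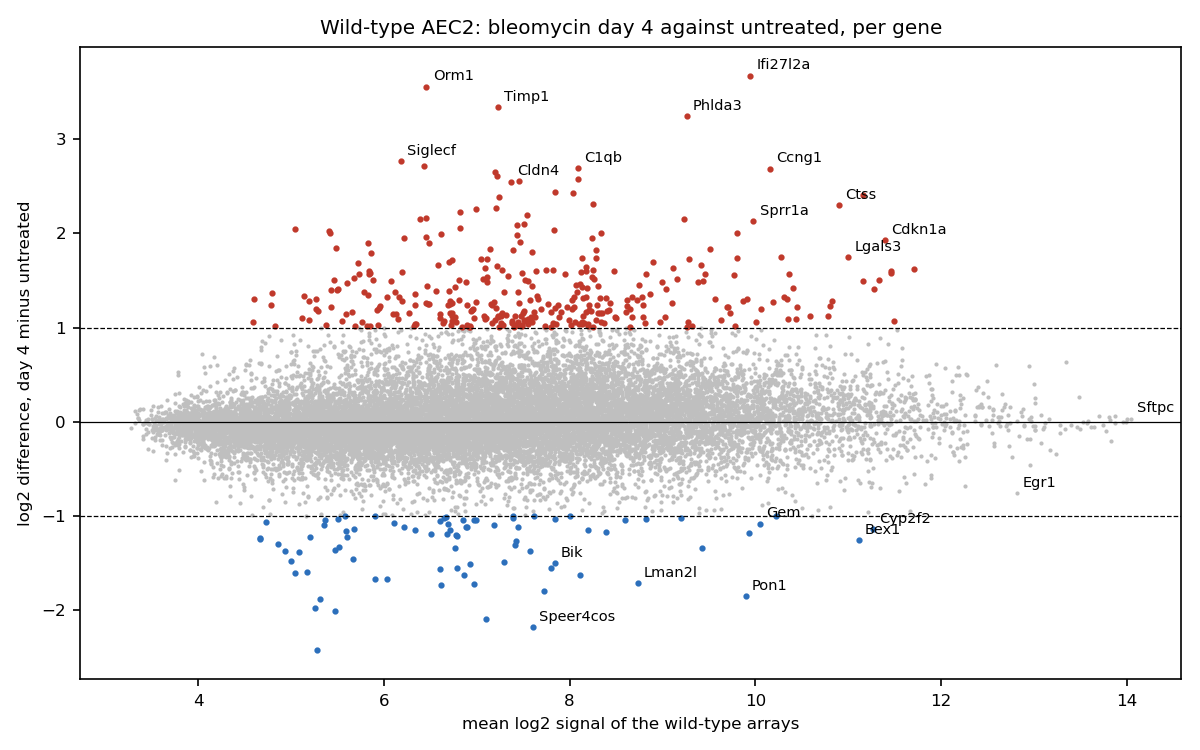
Difference between the wild-type arrays (log2, y axis) against their mean log2 signal (x axis), 1 point per gene, with the dashed lines at 2-fold and coloured points beyond them. Ifi27l2a, Orm1, Timp1 and Phlda3 stand highest, Sftpc lies at 0.03 at the bright end, and the 332 higher genes outnumber the 81 lower ones.

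The largest difference among the 18194 genes belonged to Ifi27l2a, an interferon-stimulated gene. Its signal was 8.10 untreated and 11.78 at day 4, 12.8-fold higher, beside 9.14 and 11.85 in Tlr4-/-. Timp1, the secreted inhibitor of metalloproteinases, was at 5.56 and 8.90, 10.2-fold higher, and Phlda3, which p53 induces and which competes with AKT for membrane lipids, was at 7.64 and 10.88, 9.50-fold higher. For all 3 genes the untreated Tlr4-/- signal was above the untreated wild-type one (6.62 for Timp1 and 9.05 for Phlda3), and the day 4 signals of the genotypes lay close together, with 8.96 for Timp1 and 11.06 for Phlda3 in Tlr4-/-. Orm1, an acute phase glycoprotein, was below the floor untreated at 4.68 and reached 8.24. The 25 highest genes above the floor mixed p53 targets (Phlda3, Ccng1, Dglucy, Ddit4l), interferon-stimulated genes (Ifi27l2a, Ifitm3, Ifit1, Usp18, Lgals3bp), epithelial injury genes (Cldn4, Pdpn, Sprr1a) and genes of macrophages (C1qa, C1qb, Clec4n, Clec7a, Itgb2, Ctss, Acp5). They also held the calcium-binding protein S100a4 (6.80 to 9.38), the galectin Lgals1 (8.15 to 10.31), the matrix proteoglycan Bgn (7.34 to 9.34), the protease inhibitor Serpina3n (6.46 to 8.56) and the nuclear pore gene Aaas (6.05 to 8.43).

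Leukocyte markers were higher at day 4 although the cells were sorted as AEC2. Of 25 macrophage and leukocyte markers 14 were at least 2-fold higher and 0 lower, with 24 above 0 and a median of 1.18 against 0.00 over all genes. The log2 of their summed signal was 12.30 untreated and 13.52 at day 4 in wild type, and 12.37 and 13.85 in Tlr4-/-. C1qb, a chain of the complement starter C1q made by macrophages, was at 6.74 and 9.43, and the β-glucan receptor Clec7a at 5.91 and 8.52. The integrin Itgax was at 6.23 and 8.06, and the F4/80 gene Adgre1 was dim on both arrays at 4.80 and 6.21. The pan-leukocyte gene Ptprc went from 6.69 to 7.54 and the transcription factor Spi1 from 7.65 to 8.02, each short of 2-fold, and the monocyte receptor Cx3cr1 was dim at 6.53 and 6.36. In bulk RNA, more cells of a type and more RNA per cell cannot be told apart.

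Genes typical of alveolar macrophages were higher to a like extent. Of 13 on the array 7 were at least 2-fold higher and 0 lower, with a median of 1.31. Siglecf, the lectin that marks these cells, was at 4.79 untreated and 7.56 at day 4, beside 7.08 and 7.87 in Tlr4-/-, so the untreated wild-type array was the one that stood low. Chil3 was at 10.41 and 11.90, the scavenger receptor Olr1 at 5.33 and 6.82, and the carbonic anhydrase Car4 at 7.48 and 8.90. The receptor Marco was higher by 0.64, while Fabp4 (6.59 and 6.53) and Fabp1 (6.58 and 6.25) were below the floor on both arrays. Together the macrophage lists held 36 genes, of which 19 were at least 2-fold higher in wild type and 16 of these also in Tlr4-/-. Neutrophil markers differed less, with 1 of 11 past 2-fold and a median of 0.02: S100a8 was at 10.55 and 10.65 and S100a9 at 11.09 and 11.26, while the secreted iron binder Ltf, also made by epithelium, was at 7.58 and 8.70. The part of leukocyte RNA in the immune results that follow was not tested.

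Targets of p53 were higher at day 4 across several of their functions. Of 29 on the array 16 were at least 2-fold higher (55.2%) and 0 lower, with a median of 1.13. They covered arrest, feedback, death and repair. Cdkn1a, which encodes the cell cycle inhibitor p21, was at 10.43 untreated and 12.36 at day 4, and Ccng1, a cyclin G that feeds back on p53, at 8.81 and 11.50. Among death genes, the death receptor gene Tnfrsf10b was at 5.85 and 7.55, Fas at 5.34 and 6.57, the BH3-only gene Pmaip1 at 3.95 and 5.26, the nuclease Aen at 6.27 and 7.91 and the desmosome-associated Perp at 9.89 and 10.99. Pmaip1 and Fas were below the floor on both arrays, so their values rest on dim probes. Among repair genes the translesion polymerase gene Polk was at 6.87 and 8.31 and the excision nuclease gene Ercc5 at 6.36 and 7.54.

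Other p53 targets did not pass 2-fold. Mdm2, the ubiquitin ligase that degrades p53, was at 9.49 and 10.40 and the stress sensor Sesn2 at 9.33 and 10.24, both just short of 2-fold. Bbc3 (PUMA), Btg2, Ddb2 and Pidd1 differed by between -0.08 and -0.01, Xpc by -0.36, and Eda2r was at 7.75 and 7.06 in wild type but at 6.38 and 7.79 in Tlr4-/-. In Tlr4-/- 17 of the 29 were at least 2-fold higher with a median of 1.17, and 14 of the 16 wild-type genes were among them. The untreated Tlr4-/- signal lay between the wild-type values for Phlda3 (9.05), Ccng1 (9.88) and Cdkn1a (11.17) and just below both for Mdm2 (9.44). Of 23 genes of DNA repair and damage checkpoints outside that list 0 passed 2-fold in either direction. That is near the share over all genes, 1.82% higher and 0.445% lower. The median was 0.05, and the largest differences were 0.90 for Mgmt, 0.69 for Msh6 and 0.68 for Xrcc5. Within the BCL2 family the proapoptotic Bik was the single member past 2-fold and was lower, at 8.59 and 7.09, while Apaf1 (0.80) and the survival gene Bcl2l1 (0.64) were higher by less.

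**Figure D2:**
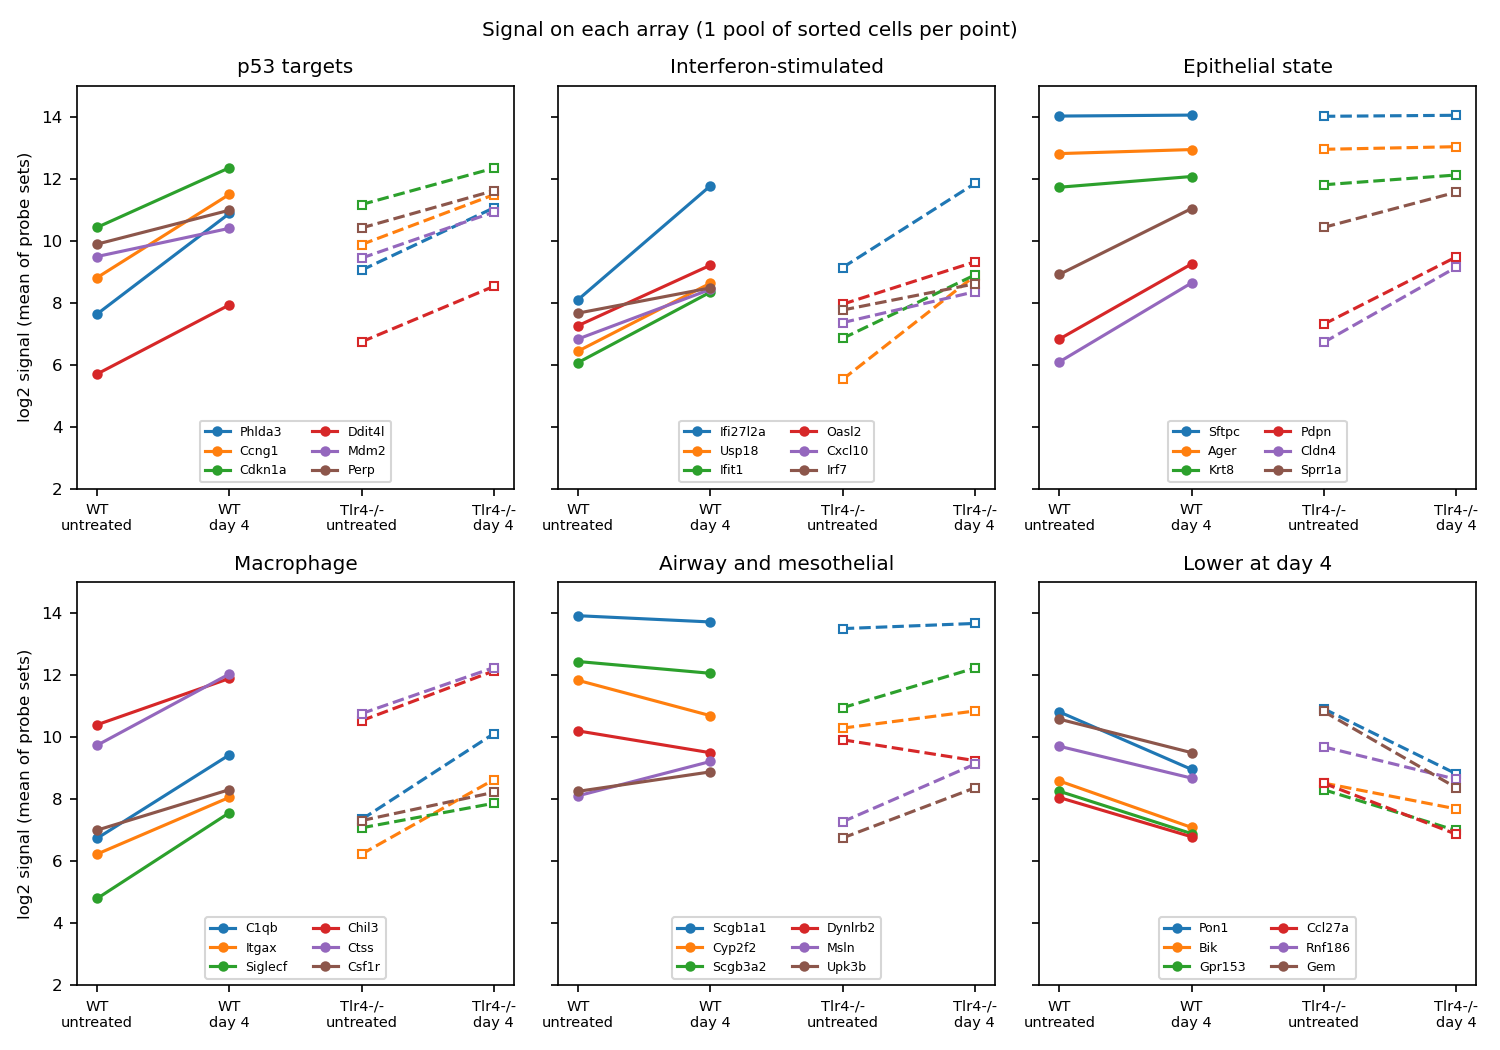
Log2 signal of selected genes on each of the 4 arrays (y axis), 1 pool of sorted cells per point, with wild type in filled circles and Tlr4-/- in open squares and a line joining the arrays of a genotype. The p53, interferon and macrophage genes shown are higher at day 4 in both genotypes, Sftpc lies at the bright end of the scale and differs by 0.03 in each genotype, and Cyp2f2 is lower at day 4 in wild type and higher in Tlr4-/-.

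Interferon-stimulated genes were higher as a group, and their promoters are shown because many hold the letters that the interferon-activated factor ISGF3 is known to bind. All 30 antiviral genes on the array had a difference above 0, and 13 were at least 2-fold higher and 0 lower, with a median of 0.99. The sequences below are the 250 bases before the start site in RefSeq (GRCm38.p6), 5′ to 3′ on the gene's strand, for the genes with a match among the 5 highest listed in the promoter table: Ifit1 at chr19:34640639-34640888 (plus strand), Trim30a at chr7:104465194-104465443 (minus) and Rsad2 at chr12:26456453-26456702 (minus). Capitals mark GAAANNGAAA, the core of the interferon-stimulated response element, searched on both strands and here present as its reverse complement.
Ifit1: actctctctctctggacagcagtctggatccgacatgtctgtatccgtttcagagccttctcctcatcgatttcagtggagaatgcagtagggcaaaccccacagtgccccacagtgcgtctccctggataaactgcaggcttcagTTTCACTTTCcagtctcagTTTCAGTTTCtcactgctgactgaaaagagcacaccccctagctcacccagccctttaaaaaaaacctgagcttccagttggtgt
Trim30a: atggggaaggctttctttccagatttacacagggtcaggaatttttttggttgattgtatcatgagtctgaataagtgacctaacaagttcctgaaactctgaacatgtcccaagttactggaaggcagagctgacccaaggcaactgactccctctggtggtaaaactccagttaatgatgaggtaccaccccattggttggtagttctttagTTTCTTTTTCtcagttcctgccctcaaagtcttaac
Rsad2: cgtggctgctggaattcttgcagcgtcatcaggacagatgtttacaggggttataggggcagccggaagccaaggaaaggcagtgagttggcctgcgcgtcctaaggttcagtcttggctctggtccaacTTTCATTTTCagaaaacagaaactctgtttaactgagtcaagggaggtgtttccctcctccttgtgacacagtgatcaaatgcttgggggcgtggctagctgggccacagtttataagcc
Ifit1 held 2 copies, and Trim30a and Rsad2 held 1 each, whereas the same window of Lgals3bp and Oasl2 held 0. Trim30a had 2 windows in the promoter table, and the one with the most matches before the start was chosen for it. Over 300 bases around the start (250 before and 50 after), the motif was in 11 of the 21 listed genes found in the table (52.4%), against 1079 of 27025 genes (3.99%). Among the listed genes past 2-fold it was in 6 of 10 (60.0%). A match describes the letters and was not measured as binding.

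The signals of these genes were as follows. Ifit1, which binds foreign RNA, was at 6.07 untreated and 8.34 at day 4, 4.83-fold higher, beside 6.85 and 8.90 in Tlr4-/-. Rsad2 (viperin) was at 5.87 and 7.59, and Trim30a, a ubiquitin ligase that dampens inflammatory signalling, at 5.47 and 7.43. Usp18, a protease that removes ISG15 and restrains the interferon receptor, was at 6.44 and 8.63 in wild type and at 5.52 and 8.87 in Tlr4-/-, the larger step of the genotypes. The nucleic acid sensor Zbp1 (6.51 to 8.42), the oligoadenylate synthetase-like gene Oasl2 (7.26 to 9.21) and the chemokine Cxcl10 (6.83 to 8.43) were also past 2-fold. Smaller differences were seen for the factors of the pathway itself: Irf7 was at 7.67 and 8.48, Irf9 at 7.85 and 8.80 and Stat2 at 8.21 and 8.74. The oligoadenylate synthetase, Ifi27l2a and Gbp genes have close relatives, so their probe sets may read more than 1 gene.

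The interferon-inducible GTPases, which attack vacuoles of intracellular pathogens, followed the same direction, with 6 of 9 at least 2-fold higher, 0 lower and a median of 1.11. Of the 9, 4 were above the floor on average, and 2 of these were among the 6, so most of the higher values rest on dim probes. Irgm2 was at 7.38 and 8.84, Gbp2 at 6.01 and 7.39 and Iigp1 at 4.91 and 6.44. Of 14 interferons, receptors and factors downstream of them 0 passed 2-fold, near the share over all genes (1.82% higher and 0.445% lower). Of these 10 differed above 0 and the median was 0.13. Ifnb1 was dim at 5.00 and 4.94, Ifng at 4.64 and 4.40, and the receptor genes Ifnar1 and Ifngr1 differed by 0.30 and 0.00. Of 13 genes for MHC class I antigen processing 1 was past 2-fold, the immunoproteasome subunit Psmb9 at 9.08 and 10.30, with a median of 0.36. Of 7 class II presentation genes the processing protease Ctss was past 2-fold, at 9.74 and 12.05, and the peptide-loading gene H2-DMa was higher by 0.49. Cd74 was at 13.53 on both arrays and H2-Ab1 at 11.07 and 11.14. In Tlr4-/- both interferon lists were also above 0 for all 39 members, with medians of 0.81 and 0.83, and 11 of the 19 genes past 2-fold in wild type were past it there.

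Chemokines that draw monocytes and lymphocytes were among the higher genes. Of 16 CC chemokines 8 were at least 2-fold higher and 1 lower, with a median of 0.88. Ccl17 was at 8.05 and 9.75, Ccl6 at 8.29 and 9.92, Ccl9 at 7.14 and 8.39 and Ccl3 at 6.81 and 8.30, all past 2-fold. The monocyte attractant Ccl2 was at 7.74 and 8.49 and Ccl5 at 7.35 and 7.13, and the single lower member was the epithelial chemokine Ccl27a at 8.06 and 6.79. Neutrophil attractants differed less: Cxcl1 was at 10.07 and 10.86, Cxcl2 at 9.94 and 10.54 and the lung chemokine Cxcl15 at 13.81 and 13.83, with the dim Cxcl3 (4.88 to 6.77) alone past 2-fold of 6. Of 16 complement genes 8 were at least 2-fold higher and 0 lower, with a median of 0.81; 3 of them, the C1q chains, are also in the macrophage list. The others were the alternative pathway factor Cfb (7.50 to 9.02), the inhibitor Serping1 (8.08 to 9.37), the proteases C1s1 (5.66 to 7.02) and C1ra (6.64 to 7.69) and the receptor C3ar1 (5.10 to 6.47). Component C5, encoded by Hc and abundant in AEC2, differed by -0.46.

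The lists of cytokine signalling and its targets each had between 1 and 5 members at least 2-fold higher, against 1.82% of all genes, and list medians of 0.46 or less. Among 19 genes of the IL-6 family and STAT3, the ligands Il6 (5.79 to 7.84), Osm (6.77 to 8.27) and Lif (6.37 to 7.85) were higher, whereas the list median was 0.11 and 0 were 2-fold lower. Of 19 NF-kB genes the 2 past 2-fold were Lif and Il1b (9.22 to 10.50), with a median of 0.30, and Tnfaip3 was higher by 0.54. Among 19 Toll-like receptor genes Tlr2 was the single one past 2-fold, at 6.76 and 8.13, with a median of 0.46. Tlr4 itself was at 7.56 untreated and 7.70 at day 4, and its co-receptors Cd14 and Ly96 were higher by 0.71 and 0.84. Acute phase genes had 5 of 17 at least 2-fold higher: Orm1, Serpina3n, Saa3 (6.69 to 8.50), the antimicrobial lectin Reg3g (8.26 to 9.74) and Ltf. The list median was 0.20, Hp differed by -0.28 and Itih4 by -0.42.

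Injury genes of the epithelium passed 2-fold more often than genes at large, and AEC2 markers did not. Of 21 AEC2 markers 0 passed 2-fold, which is near the share over all genes (1.82% higher and 0.445% lower). Among them 15 differed below 0 and 6 above, and the median was -0.06, or 0.29 on the scale of the hybridisation controls. Sftpc, Sftpb, Lyz2 (13.99 on both arrays) and the growth factor response gene Etv5 (12.08 and 12.10) differed by 0.03 or less, and Slc34a2, the phosphate carrier, was at 13.67 and 13.61. The cre controls, as bright as the surfactant genes, differed by less than the dimmer controls of the same mix, so equal signals at that brightness do not show unchanged expression. The lowest members were Acoxl (11.54 to 10.90), Bex2 (11.23 to 10.60) and Lgi3 (12.19 to 11.59), and the surfactant lipid transporter Abca3 differed by -0.35. Among 20 alveolar transcription factors 0 passed 2-fold, again near the share over all genes. The master regulator Nkx2-1 differed by -0.37, Gata6 by -0.51 and Hopx, high in AEC1, by 0.65. The list median was -0.11, or 0.24 on the control scale.

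Of 18 transitional epithelial genes, 7 were at least 2-fold higher and 0 lower, with a median of 0.75 and all 18 above the floor. The tight junction gene Cldn4 was at 6.09 untreated and 8.64 at day 4, 5.86-fold higher, beside 6.72 and 9.14 in Tlr4-/-. Sprr1a, a cornified envelope precursor, was at 8.91 and 11.04, with the untreated Tlr4-/- array between them at 10.43. The galectin Lgals3 was at 10.13 and 11.87, Krt7 at 9.55 and 10.82, the integrin subunit Itgb6 at 6.83 and 8.09, the urokinase receptor Plaur at 8.05 and 9.24 and the AP-1 member Fosl1 at 6.66 and 7.74. Krt8, after which the transitional state is often named, differed less, at 11.73 and 12.08, and Krt18 and Krt19 were higher by 0.49 and 0.86. Cldn4 was the single gene past 2-fold of 19 claudin and tight junction genes, and Cldn18, the alveolar claudin, was at 12.62 on both arrays. AEC1 markers had 3 of 15 at least 2-fold higher and a median of 0.49. These were the mucin-like Pdpn (6.83 to 9.25), the anchoring protein gene Akap5 (higher by 1.65) and the caveolar gene Cav1 (7.39 to 8.71). The other AEC1 genes differed by less, Aqp5 by 0.51, Clic5 by 0.55 and Ager by 0.13.

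**Figure D3:**
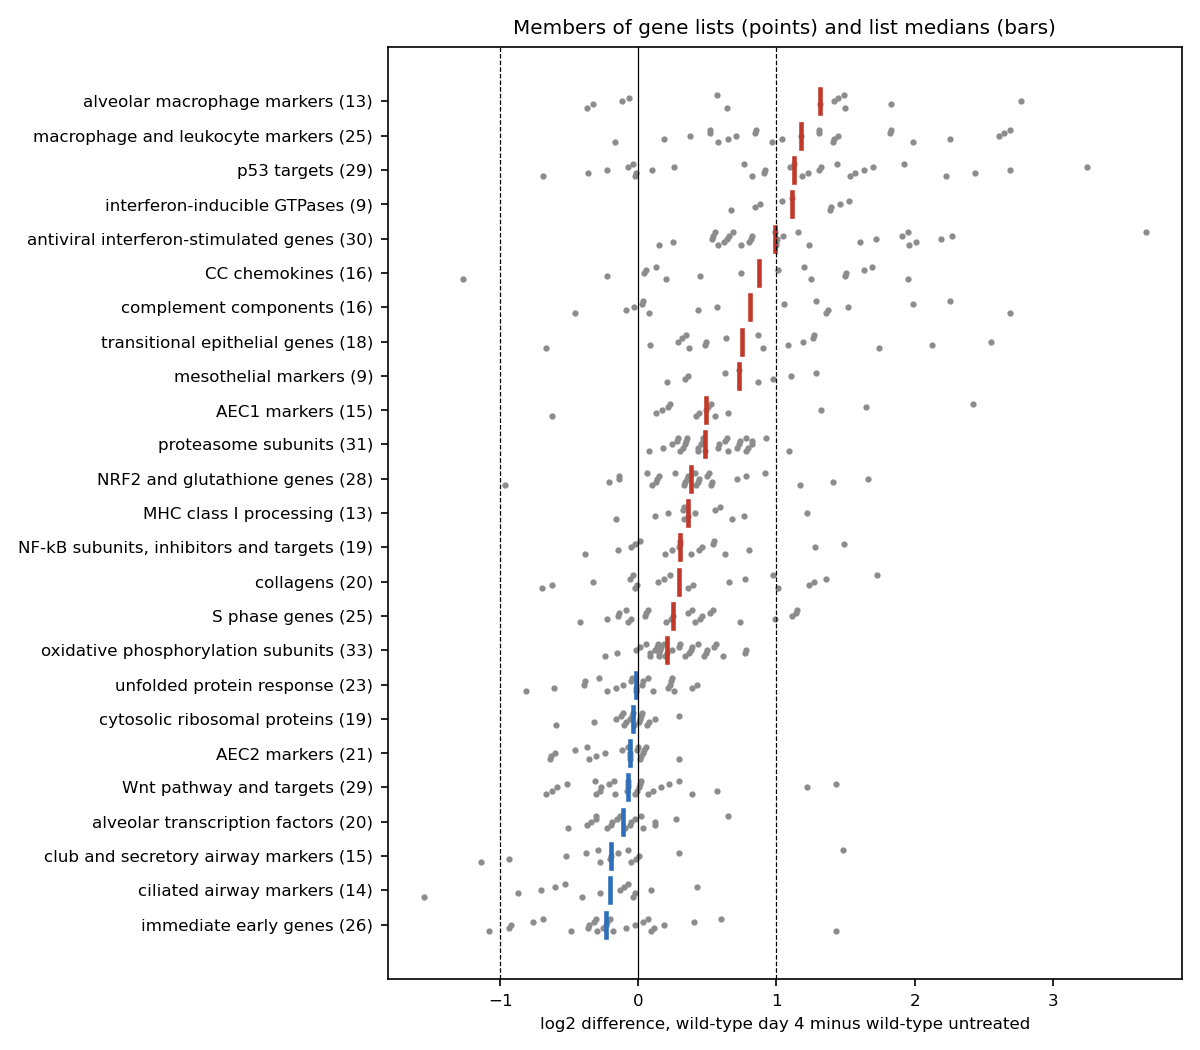
Difference of each listed gene between the wild-type arrays (log2, x axis; points) with the list median (bars), for 25 lists with the number of members on the array in brackets and dashed lines at 2-fold. Macrophage, p53 and interferon lists have medians near or above 1, proteasome genes lie together above 0, and AEC2 markers lie between -0.64 and 0.29; the medians below 0 turn positive on the scale of the hybridisation controls.

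Structural and matrix genes included some of the largest differences. Among 18 metalloproteinases and their inhibitors 4 were at least 2-fold higher, Timp1 and the dim Mmp12 (4.42 to 6.42), Mmp19 (5.70 to 6.85) and Mmp2 (5.42 to 6.45). Of 20 collagens and their processing enzymes 5 were at least 2-fold higher, Col3a1 (6.18 to 7.91), Col1a1 (8.18 to 9.54), Plod2 (6.36 to 7.63), Col1a2 (6.27 to 7.51) and Col6a2 (9.27 to 10.29). The AEC1 basement membrane chains Col4a3 and Col4a4 differed by -0.62 and -0.70. Of 16 fibroblast and smooth muscle markers 5 were higher, all of them matrix genes, and 1 of these was above the floor on average. Pdgfra, Dcn, Acta2 and Tagln were not past 2-fold and the list median was 0.18. The summed level of that list was 11.02 untreated and 11.62 at day 4 (log2), and its part in the collagen values was not tested. In the TGF-β list the secreted Tgfbi (8.67 to 10.25) and Itgb6, which activates latent TGF-β, were past 2-fold, Ccn2 was higher by 0.92 and Tgfb1 was at 6.80 and 6.69. Intermediate filament and actin genes past 2-fold included Vim (9.40 to 11.15), Flna (9.26 to 10.56) and Msn (10.96 to 12.02). Tpm2 was past it too but dim, at 5.56 and 6.71, and its 4 probe sets ranged from -0.59 to 2.40. Among S100 proteins S100a6 was at 10.58 and 12.08 and S100a14 at 7.47 and 9.01.

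Proteasome and mitochondrial genes had small differences that ran mostly one way, and other stress and metabolic lists were mixed. All 31 proteasome subunits were above 0, with a median of 0.48 and 1 past 2-fold, Psmd14 at 9.81 and 10.90. Of 30 mitochondrial ribosomal proteins 29 were above 0 with a median of 0.37, and of 33 oxidative phosphorylation subunits 30 with a median of 0.21, whereas 19 cytosolic ribosomal proteins had a median of -0.04, or 0.32 on the control scale. Over all genes above the floor the median was 0.07. Of 28 NRF2 and glutathione genes 3 were at least 2-fold higher, the aldo-keto reductase Akr1b8 (8.58 to 10.24), the metallothionein Mt2 (10.57 to 11.98) and the sulfiredoxin Srxn1 (7.81 to 8.98), with a median of 0.39. Nqo1, the textbook NRF2 target, was dim at 5.82 and 6.74, and Hmox1 was level at 10.66 and 10.79. The serine synthesis gene Psat1 (7.44 to 9.05) was the single gene past 2-fold of 22 in the ATF4 and amino acid list, and the small heat shock protein gene Cryab (7.67 to 8.99) of 16 chaperones. The unfolded protein response had 0 of 23 past 2-fold, with Hspa5 at 10.80 and 11.03 and Ddit3 (CHOP) at 8.53 and 7.92. Lipid synthesis, which supplies surfactant, stayed within 2-fold in all 28 fatty acid and phospholipid genes and all 18 sterol genes: Gpam differed by -0.65, Acaca by -0.41 and Sqle by 0.46. A count of 0 in the unfolded protein and lipid lists is near the share over all genes, 1.82% higher and 0.445% lower.

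Hyaluronan genes, which the study's title names, stayed within 2-fold with 1 exception. Of 22 genes of hyaluronan handling and the inter-alpha-inhibitor family, the dim Tnfaip6 was past it at 4.06 and 5.12, and its product links hyaluronan to those inhibitors. Itih1, an inhibitor heavy chain, was at 8.11 and 7.31 (a difference of -0.80, and -0.64 in Tlr4-/-), and the scavenger receptor gene Stab1 was higher by 0.43. The list median was -0.03, or 0.32 on the control scale. The synthase gene Has2 was dim at 5.16 and 5.14, Has1 was at 7.91 and 8.02 and the hyaluronan receptor gene Cd44 at 8.85 and 9.19. In the xenobiotic list the epoxide hydrolase gene Ephx1 (8.60 to 10.43) and Adh1 (6.07 to 7.31) were higher, and Pon1 and Cyp2f2 lower, of 24 genes. Notch3 (5.86 to 7.11) was the single gene past 2-fold of 15 in the Notch pathway. Of the 64 lists 17 held no gene past 2-fold in either direction. Over all genes 1.82% were higher and 0.445% lower, so short lists often hold none.

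Proliferation genes differed singly. The counts that follow stand beside 1.82% higher and 0.445% lower over all genes. Of 25 S phase genes 3 (12%) were at least 2-fold higher, Tk1 (6.16 to 7.31), Uhrf1 (6.03 to 7.17) and Mcm4 (7.32 to 8.44), with a median of 0.25. Of these 3 genes, 1 was above the floor on average. Of 28 mitotic genes Ube2c (7.38 to 8.67) was higher and the checkpoint kinase gene Bub1 (7.28 to 6.13) lower, 3.57% each way. Bub1 was below the floor on average, Mki67 was at 8.53 and 8.98, and the mitotic median was 0.13. Myc was at 7.41 and 8.84 and Ccnd1 at 10.19 and 11.41, the 2 higher genes of 29 in the Wnt list, in which Axin2 differed by -0.63 and Fzd7 by -0.67. That list's median was -0.07, or 0.28 on the control scale. Immediate early genes had a median of -0.23, or 0.12 on the control scale, with Egr1 at 13.19 and 12.43 and the GTPase gene Gem the single one 2-fold lower, at 10.59 and 9.50. Among 18 clock genes the output factor Dbp (8.01 to 9.34) and Per2 (7.03 to 8.19) were past 2-fold, and 12 of the 18 differed above 0. Dbp was not past 2-fold without cross-matching probe sets, and Per2 was not with the probe set of highest mean. Per1 was higher by 0.29, and Nr1d1 differed by -0.60, Arntl (8.08 to 7.13) by -0.95 and Npas2 (8.83 to 7.86) by -0.97. The hour at which lungs were taken is not given in the sources used here.

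Genes lower at day 4 were fewer, and a larger share of them lay below the floor, which takes in the day 4 signal. The clearest was Pon1, a lactonase that protects against oxidised lipids, at 10.82 untreated and 8.97 at day 4, 3.62-fold lower, beside 10.92 and 8.82 in Tlr4-/-. Gpr153, an orphan receptor, was at 8.26 and 6.89 beside 8.31 and 6.99, and the ubiquitin ligase gene Rnf186 at 9.71 and 8.68 beside 9.69 and 8.65, so these 3 genes gave nearly the same pair of values in both genotypes. The mast cell inhibitory receptor gene Milr1 was at 8.57 and 7.02 beside 8.03 and 7.14 in Tlr4-/-. Bex1 was at 11.74 and 10.48 beside 10.65 and 10.14, and the adaptor gene Grb7 at 10.72 and 9.72 beside 10.52 and 9.48. Zbtb16 was at 10.52 and 9.34 but nearly level in Tlr4-/- at 9.66 and 9.60. Speer4cos had the largest difference above the floor, 8.70 untreated and 6.52 at day 4, but it belongs to a multicopy family and the Tlr4-/- arrays were at 6.59 and 6.74, so the untreated wild-type array alone stood high. Lman2l (9.59 to 7.87) was 2-fold lower on the mean of 2 probe sets and not on the brighter one. On the scale of the hybridisation controls 18 of the named lower genes were no longer 2-fold lower, and Speer4cos, Pon1, Lman2l, Milr1, Bik and Gpr153 of the 20 lowest above the floor still were.

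Markers of other lung cells varied by list. Mesothelial markers had 2 of 9 at least 2-fold higher, Lrrn4 (6.07 to 7.35) and Msln (8.11 to 9.22), with a median of 0.73, beside 1.17 in Tlr4-/-. Of 15 club and secretory airway markers 3 differed above 0 and 12 below, with a median of -0.20 (0.16 on the control scale). The largest difference was upward, in Reg3g (8.26 to 9.74), the 1 member 2-fold higher, and 1 was 2-fold lower. Cyp2f2 was at 11.84 and 10.70, Scgb3a1 at 11.14 and 10.21 and Scgb3a2 at 12.45 and 12.07. In Tlr4-/- Cyp2f2, Scgb3a1 and Scgb3a2 were at 10.30 and 10.85, 9.50 and 10.01 and 10.96 and 12.24, which is higher at day 4. Ciliated markers had a median of -0.21 (0.15 on the control scale), with Dynlrb2 at 10.21 and 9.50 and Tppp3 at 9.63 and 9.03. Lymphocyte markers were mostly dim, with Gzma at 6.25 and 4.37 and Cd79a at 7.44 and 6.32 lower and a median of -0.23, or 0.14 over the members above the floor and 0.13 on the control scale. Endothelial markers had 0 of 15 past 2-fold, near the share over all genes (1.82% higher and 0.445% lower). Their median was -0.18, or 0.15 over the members above the floor and 0.18 on the control scale. Pecam1 was at 7.27 and 6.45 and Esam at 10.13 and 10.44.

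The wild-type differences were set beside those of Tlr4-/- AEC2, whose arrays are not shared with the wild-type pair. The 4 Tlr4 probe sets averaged 7.56 and 7.70 in wild type and 7.44 and 7.24 in Tlr4-/-; which exons the deletion removes was not given, so the signal does not check the genotype. In Tlr4-/- 342 genes (1.88%) were at least 2-fold higher at day 4 and 141 (0.775%) lower. The higher sets shared 180 genes, 54.2% of the wild-type set and 52.6% of the Tlr4-/- set, and 326 of the 332 wild-type genes had the same sign in Tlr4-/-, where their median was 1.08 against 1.28 in wild type. The lower sets shared 12 genes, 14.8% of the wild-type set and 8.51% of the Tlr4-/- set, and 49 of the 81 had the same sign, with a median of -0.13 against -1.21. The wild-type values were used to choose these genes, which favours a larger difference in wild type, and the pools of both genotypes differed alike in their Y-linked signal, whose part in the agreement was not tested. The share with the same sign over all genes was not counted, so 326 of 332 and 49 of 81 have no background beside them.

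**Figure D4:**
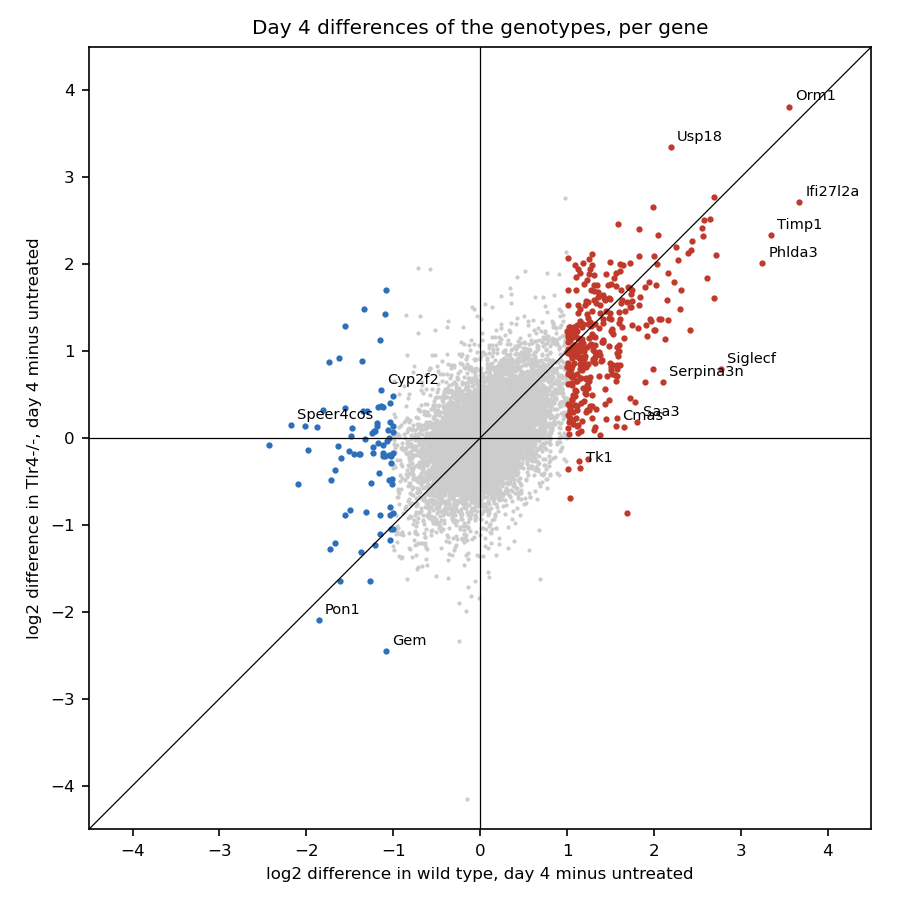
Day 4 minus untreated difference in Tlr4-/- (log2, y axis) against that in wild type (log2, x axis), 1 point per gene, red for the 332 genes at least 2-fold higher and blue for the 81 at least 2-fold lower in wild type, with the line of equal differences. Of the red points 326 lie above 0 on the y axis, and of the blue points 49 lie below it.

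The genes with the largest gap between the responses of the genotypes included several with a low untreated wild-type signal. Saa3, an acute phase apolipoprotein, was at 6.69 and 8.50 in wild type and at 8.37 and 8.56 in Tlr4-/-. Serpina3n was at 6.46 and 8.56 against 7.57 and 8.21, and Cmas, which activates sialic acid, at 8.03 and 9.60 against 9.28 and 9.42. In each of these the untreated wild-type array was the lowest of the 4. Usp18 was the reverse, with the untreated Tlr4-/- array lowest at 5.52. Gem was at 10.59 and 9.50 against 10.83 and 8.38, the larger step being in Tlr4-/-. The differences between responses were not tested, since each rests on 4 arrays without replicates.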

How the data were processed

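Arrays of 4 pools of sorted AEC2 were used, 1 per genotype and treatment, and the comparison rests on the wild-type pair. The authors deposited 1 table of log2 signals per probe set; the scale was read from its values, and the software and the normalization between arrays are not given in the sources used here. Of 45101 probe sets, 64 were array controls and 932 had several gene symbols in the platform annotation. Controls aside, the 10092 probe sets with no symbol or several were left out. The 34958 with 1 symbol, among them some of the controls, were averaged per gene, which gave 18194 genes. Entrez identifiers of 34754 were found in the RefSeq gene table. Differences of log2 signals were taken and called at 1 (2-fold), without a test because each group had 1 array, whose number limits the precision. Detection calls were not used. Python 3.11.15, pandas 2.3.3 and numpy 2.4.6 were used, and the script was tested on simulated data.

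Genes were named by rule: the 25 highest and 20 lowest above the floor with probe sets in agreement (predicted, Y-linked and Xist genes passed over), then for 64 lists the key members and the 4 largest by size, then 8 genes each way by the gap to the Tlr4-/- response. The comparison, the lists and the members were chosen with earlier results of these data known. Other members and sex-linked genes were added as values of their lists. Other ways to summarise probe sets, filters and scalings were tried.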

Additional observations from a re-analysis of the deposited data

Results flagged for a closer look

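Some wild-type differences ran opposite to those in Tlr4-/-, by more than the spread between the day 4 arrays of the genotypes (0.19, a robust SD over genes). The differences between genotypes were not tested, and each value below rests on 1 array per group. Genes lower at day 4 in wild type and above 0 in Tlr4-/- included Cyp2f2, a club cell cytochrome, at -1.14 against 0.55, and 1110017D15Rik, a gene of the ciliated list, at -1.55 against 1.29. The B cell receptor component Cd79a was at -1.12 against 0.36. Gatd3a was at -1.34 against 0.31, Klhl29 at -1.18 against 0.35 and Spaca9 at -1.0 against 0.49. In each of these genes the untreated wild-type signal was the highest of the 4 arrays. Cyp2f2 was at 11.84 untreated in wild type and 10.30 in Tlr4-/-, and at 10.70 and 10.85 at day 4. The means over the arrays of 1110017D15Rik (6.59) and Cd79a (6.48) were below the floor.

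Genes higher in wild type and below 0 in Tlr4-/- included the S phase genes Tk1, at 1.15 against -0.34, and Uhrf1, at 1.14 against -0.26. The aldo-keto reductase gene Akr1c19 was at 1.24 against -0.24 and Gdap2 at 1.01 against -0.36. Tk1 and Uhrf1 were below the floor on the untreated wild-type array, at 6.16 and 6.03.

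List medians also had opposite signs. The acute phase median was 0.20 in wild type and -0.24 in Tlr4-/-, and the sterol synthesis median 0.14 and -0.15. Both sterol values lay within the spread of 0.19 between the day 4 arrays. The club and secretory airway median was -0.20 and 0.24, and the ciliated median -0.21 and 0.21. The wild-type club and ciliated values turned positive on the scale of the hybridisation controls. All of these list medians were also smaller in size than the spread between the untreated arrays (0.25, a robust SD over genes). Both spreads are those of single genes, so they do not measure how far a list median varies. In Tlr4-/- the bioB and bioC controls also differed by between -0.26 and -0.17, and bioD and cre by between -0.14 and 0.01. Tlr4-/- medians were not put on a control scale. Whether the negative acute phase and sterol values there would keep their sign was not tested.

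Probe sets with no symbol or several, which no gene-level result used, were more often 2-fold lower than higher in wild type, unlike the named ones. Of 10092 such probe sets 87 were at least 2-fold higher in wild type and 233 lower, or 0.862% and 2.31%, against 749 (2.14%) and 258 (0.738%) of those with 1 symbol. Their median signal was 6.07 against 7.27. In Tlr4-/- 198 were higher and 144 lower, and 51 of the 87 higher but 18 of the 233 lower were past 2-fold in the same direction there. The highest of the 87 carried no symbol and was at 5.65 untreated and 10.25 at day 4, beside 8.16 and 10.72 in Tlr4-/-. Its difference of 4.60 exceeded the largest of any gene, 3.67 for Ifi27l2a. A probe set shared by Isg15 and Gm9706 was at 7.59 and 9.81 in wild type.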

How the results depend on the processing

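No paired analysis was possible because each group had 1 array, so that no pair of replicates existed. The counts of 332 higher and 81 lower genes were 422 and 106 with the probe set of highest mean per gene, 334 and 83 without cross-matching probe sets (_x_at and _s_at), 332 and 96 after quantile normalization and 332 and 83 after centring on the median, each within 1.5 times the reported count. Restricting to genes above the floor left 232 higher and 28 lower genes and moved the share of higher among called genes from 80.4% to 89.2%. The floor takes in the day 4 arrays, which favours higher genes in that share. Centring on the hybridisation controls, an alternative chosen after seeing the data, gave 890 higher and 29 lower genes, 96.8% of the called genes being higher, and kept all 332. It turned all 18 list medians below 0 positive, 4 of which lay below 0 by more than the spread of 0.19 between the day 4 arrays: lymphocyte markers (0.13), club markers (0.16), ciliated markers (0.15) and immediate early genes (0.12). That spread is of single genes and does not measure how far a list median varies. Over members above the floor 4 of the 18 were positive, among them the lymphocyte (0.14) and endothelial (0.15) medians. Of 135 named genes past 2-fold, 7 were no longer past it with the probe set of highest mean (Col1a1, Lman2l, Mmp19, Msn, Mtus1, Per2 and Tpm2), 2 of the 134 with a value without cross-matching probe sets (Dbp and Mcm4), 3 after quantile normalization (Mrpl16, Msn and Psmd14) and 18, all of them lower genes, on the control scale. No array could be left out, since each is a whole group. Signal over background was not given, and the 100 higher and 53 lower genes below the floor rest on probes that were dim on average.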

Other observations

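Secreted and immune genes outside the lists, chosen here after their values were seen, were among the higher genes. Retnla, a cytokine-like protein of type 2 immunity, was at 10.67 untreated and 12.25 at day 4, and Slpi, an antiprotease of epithelial fluid, at 10.66 and 12.26. The calcification inhibitor gene Mgp was at 10.89 and 12.52, and in Tlr4-/- at 10.90 and 12.60. These genes were well above the floor on every array. Il1rn, the interleukin-1 receptor antagonist, was at 6.31 and 7.83, and the B cell attractant Cxcl13 at 6.56 and 8.11. The anion exchanger gene Slc26a4 (pendrin) was at 8.69 and 10.18 in wild type and at 8.77 and 10.21 in Tlr4-/-. Ddias, a DNA damage-induced apoptosis suppressor gene, was below the floor on average and went from 5.08 to 7.79.

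Of the 332 higher genes 133 belonged to at least 1 of the 64 lists and 199 to none, and of the 81 lower genes 10 and 71. The lists cover 1127 genes, 6.19% of those measured. Among lower genes in no list and below the floor, Slc18a2, a vesicular monoamine transporter, was at 8.15 and 6.05, Shisa3 at 7.83 and 6.11 and Mgam, an intestinal glucosidase gene, at 6.86 and 5.19. Their Tlr4-/- differences were -0.52, -1.27 and -1.21.

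Other motif searches of the same promoter windows gave these shares. The amino acid response element TGATGNAA was in 7 of 21 listed ATF4 genes (33.3%) against 4.51% of all genes, the clock E-box CACGTG in 5 of 16 clock genes (31.2%) against 8.09%, and the antioxidant element TGACNNNGC in 6 of 24 NRF2 genes against 3781 of the 27025 genes in the table.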
